A study of Mus musculus with 6 samples.

Results

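The 33 genes described here encode the subunits of the protein complexes built around the histone deacetylases HDAC1 and HDAC2. They were chosen by name and role, with earlier results of these data known. They comprise 2 catalytic subunits, 2 histone chaperones used by more than 1 complex, 13 SIN3 subunits, 9 NuRD subunits, 6 CoREST subunits and 1 MiDAC subunit. All 33 were found by symbol among the 17313 genes of the deposited table. Values are whole numbers that the authors normalized between libraries, called scaled counts below. Of the members, 32 reached 10 scaled counts in at least 3 libraries and were tested, within 13260 genes tested in all. Only Brms1 did not.

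RNA was measured in bone marrow-derived macrophages, which are grown in culture from marrow, of C57BL/6 mice that had received LLC1 lung carcinoma cells by vein and whose marrow was taken on day 20. Every mouse, controls included, carried floxed Hdac2 alleles (Hdac2fl/fl). The 3 WT libraries come from floxed mice for which no Cre is named, and the 3 KO libraries from floxed mice that also carried LysMCre, a Cre recombinase expressed from the lysozyme gene of myeloid cells. Cells that do not express lysozyme keep the floxed gene. The sources used here name neither the age and sex of the mice nor the deleted exon. They do not say if libraries come from different mice, so p-values reflect only how these 6 libraries vary. Sex-linked RNA, given below, differed within WT, so WT 1 is not a repeat of the same material as WT 2 and WT 3. Among the other libraries of a group the variation may be technical. The comparison asks how the RNA of these subunits stood when HDAC2 had been targeted.

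HDAC1 and HDAC2 remove acetyl groups from histone tails, and acetylated tails mark active promoters and enhancers. Neither enzyme binds DNA by itself. SIN3 brings the enzymes to promoters through a large scaffold, NuRD pairs them with a nucleosome-remodelling ATPase, CoREST pairs them with a histone demethylase, and MiDAC is a smaller complex linked to dividing cells. The chaperones RBBP4 and RBBP7 bind histones in both SIN3 and NuRD. Most places in these complexes can be filled by either of a few close relatives (paralogs), so the makeup of a complex can differ between cells with the supply of each paralog.

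Library totals lay between 5704313 and 5837994 scaled counts. The 10 macrophage markers fixed for this work were all tested, with sums of 11672 to 12468 in WT and 10559 to 11179 in KO in summed scaled counts. Mertk instead ranged from 851 to 1025 in WT and from 988 to 1140 in KO. Of the other lists, 0 of 4 T cell, 0 of 4 erythroid, 1 of 8 neutrophil, 1 of 4 B cell and 1 of 4 epithelial markers were among the listed genes, and 5 of 6 blood progenitor markers, which summed to 261 to 361 in WT and 312 to 396 in KO. Blood progenitor markers did not move together. Cd34 was lower in every KO library (130 to 158, against 164 to 249 in WT). Hoxa9, Gata2 and Meis1 were higher in every KO library, and Kit was low with overlap (4 to 18 in WT, 3 to 6 in KO). The 14 fibroblast and marrow stroma markers summed to 18943, 7602 and 8268 in WT 1, WT 2 and WT 3. In KO they summed to 24535, 22524 and 19563. Col1a1 (1798 to 3953) and Col1a2 (1749 to 3576) were the highest. Lum (0 to 11), Dcn (1 to 25), Thy1 (8 to 26) and Pdgfra (18 to 152) were low. Not every marker followed the sum, as Dcn was at 8 in WT 1, 13 in WT 3 and 3 in KO 3. Xist, a marker of female cells, was at 5243 in WT 1, at 0 and 74 in WT 2 and WT 3, and at 3298 to 4997 in KO. Y chromosome genes Ddx3y, Kdm5d, Eif2s3y and Uty were at 179 to 745 in WT 2 and WT 3 and 0 to 10 in KO. In WT 1 they were at 23 to 44, so this library held both signals. Between KO and WT 2 or WT 3, sex-linked RNA and genotype cannot be told apart. On the stroma, Xist and Y chromosome measures WT 1 lay nearer to the KO libraries than to WT 2 and WT 3. It also did so on the first principal component of all genes tested, the axis of largest variation between libraries (78.6%). There WT 1 was at -12.7, the KO libraries at -51.5 to -19.9, and WT 2 and WT 3 at 72 and 54.6. The differences on which the results turn are therefore also given against WT 1 alone or without it. In bulk RNA, a smaller share of cells of a type and less RNA per cell cannot be told apart.

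The supply of subunit RNA was close in both genotypes for most members. Log2 differences, KO minus WT on log2(scaled count + 1), were smaller than 0.15 in size for 27 of the 32 tested members (84.4%), against 53.2% of all genes tested. The median difference was -0.024 for the members and -0.005 for all genes, and the median size regardless of sign was 0.055 against 0.14. Members were also steadier between libraries of 1 group, with a median SD of 0.0717 on the log2 scale against 0.13 for all genes. Abundant genes in general varied less: among genes with a mean of at least 100 scaled counts the median size was 0.11 and the median SD 0.101, against 0.047 and 0.0697 for the 31 members there.

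No member passed the test of KO against WT (limma with Benjamini-Hochberg adjustment over all genes at 0.05), and neither did any other gene (0% of genes tested), with a smallest adjusted p of 0.158. At an unadjusted limma p under 0.05 there were 4 of the 32 tested members, Hdac2, Rcor2, Brms1l and Sap30. This was a smaller share than the 24.4% of all genes. In 6 members (18.8%) the WT and KO libraries did not overlap, against 29.5% of all genes. Rcor2 alone was higher in every KO library (3.12% of members, 16.1% of genes), and Hdac2, Sap30, Chd4, Mta2 and Dnttip1 were lower (15.6% of members, 13.4% of genes). Without WT 1, 3 of the 32 members passed (Hdac2, Rcor2 and Brms1l). This was a smaller share than the 17.8% of all genes (12.8% higher and 5.07% lower in KO). In that fit the remaining WT libraries are the 2 with low Xist and a low stroma marker sum, so genotype and these features cannot be told apart. The number of members without overlap depended on which libraries were used and on how many. Groups of fewer libraries overlap less readily, so each count is given beside the share of all genes. It was 6 without WT 3 (35.1% of all genes did not overlap), 7 without KO 1 (33.2%) and 6 without KO 2 (34%). In contrast, 11 members did not overlap without WT 1 (49.7%), 12 without WT 2 (37.8%), 14 without KO 3 (50.6%), 18 with WT 1 as the only WT library (53%) and 19 with WT 2 and KO 3 set aside (59.5%).

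**Figure D1:**
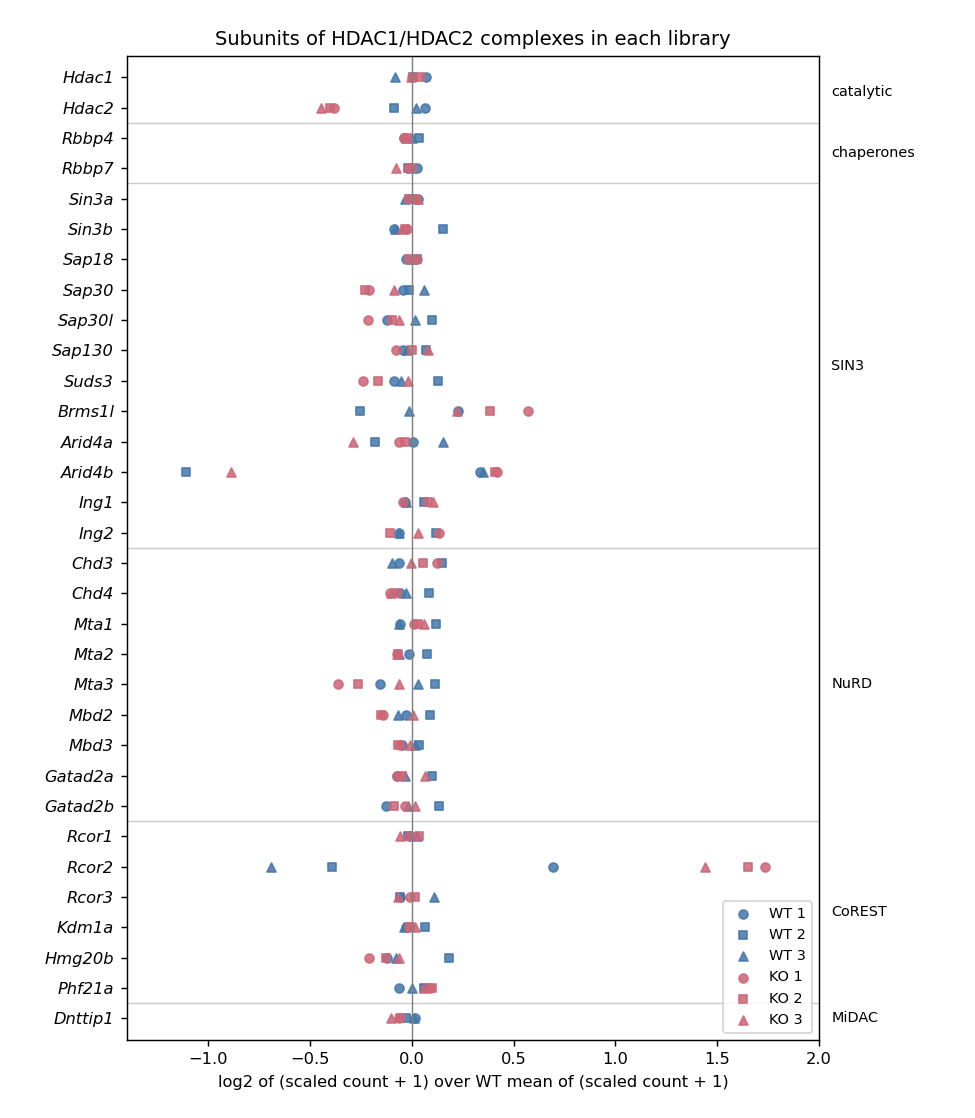
Each point is a library, placed by the log2 of its scaled count (plus 1) over the WT mean, with 1 row per tested subunit grouped by complex. Most rows sit within a narrow band at 0, while Hdac2, Rcor2, Brms1l and Arid4b spread out of it.

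Hdac2 and Rcor2 are the members on which most of the results turn, so their upstream sequence is shown, from the RefSeq promoter table (GRCm38.p6), ending where the gene starts in the deposited table. Capitals mark GGGCGG or its reverse complement, the core of the GC box bound by SP1, a factor named in the series title.

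Hdac2, chr10:36974294-36974543, plus strand: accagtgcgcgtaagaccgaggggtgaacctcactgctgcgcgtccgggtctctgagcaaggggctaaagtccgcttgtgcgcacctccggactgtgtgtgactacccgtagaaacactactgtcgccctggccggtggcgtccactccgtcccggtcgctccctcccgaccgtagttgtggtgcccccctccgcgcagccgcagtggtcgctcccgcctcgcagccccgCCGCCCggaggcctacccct

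Rcor2, chr19:7267144-7267324, plus strand: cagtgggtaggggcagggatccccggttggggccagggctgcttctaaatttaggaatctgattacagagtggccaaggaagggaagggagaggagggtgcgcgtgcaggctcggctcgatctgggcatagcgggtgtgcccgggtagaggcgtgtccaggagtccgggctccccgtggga

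The Hdac2 stretch of 250 bases holds the motif at 1 place. The Rcor2 stretch of 181 bases holds none, and the full 250 bases upstream of its RefSeq start hold 1. RefSeq promoters were matched for 26 members, of which 22 (84.6%) had the motif on either strand in the 250 bases before a start, against 35.4% of the 27025 genes of the table. This describes the letters of the promoters and says nothing of SP1 binding. The promoter table holds more genes than the 13260 tested here, so the shares do not compare genes of like expression. A gene counted when any of its promoters had the motif.

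The catalytic pair differed from each other. Hdac2 (ENSMUSG00000019777, chromosome 10, 36974544 to 37001889, mm10) had 534, 482 and 518 scaled counts in WT 1, WT 2 and WT 3, and 392, 387 and 375 in KO 1, KO 2 and KO 3. The KO libraries were close to each other and all below the lowest WT library. The ratio of means, KO over WT, was 0.752, a log2 difference of -0.41 ± 0.0574 (SE; 95% interval -0.55 to -0.27), with a limma adjusted p of 0.158 and an exact permutation p of 0.1, the smallest that 3 against 3 allows. Without WT 1 the difference was -0.38 and passed (limma adjusted p = 0.0142), and against WT 1 alone it was -0.47. Reads from exons left in place would still count for the gene.

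Hdac1 (ENSMUSG00000028800, chromosome 4, 129516104 to 129542713), the close relative that can stand in for HDAC2 in every one of these complexes, had 373, 357 and 336 scaled counts in WT and 356, 365 and 354 in KO. All 3 KO values lay inside the WT range. The log2 difference was 0.01 with a 95% interval of -0.13 to 0.16. Summed over both genes, the libraries held 907, 839 and 854 scaled counts in WT and 748, 752 and 729 in KO.

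**Figure D2:**
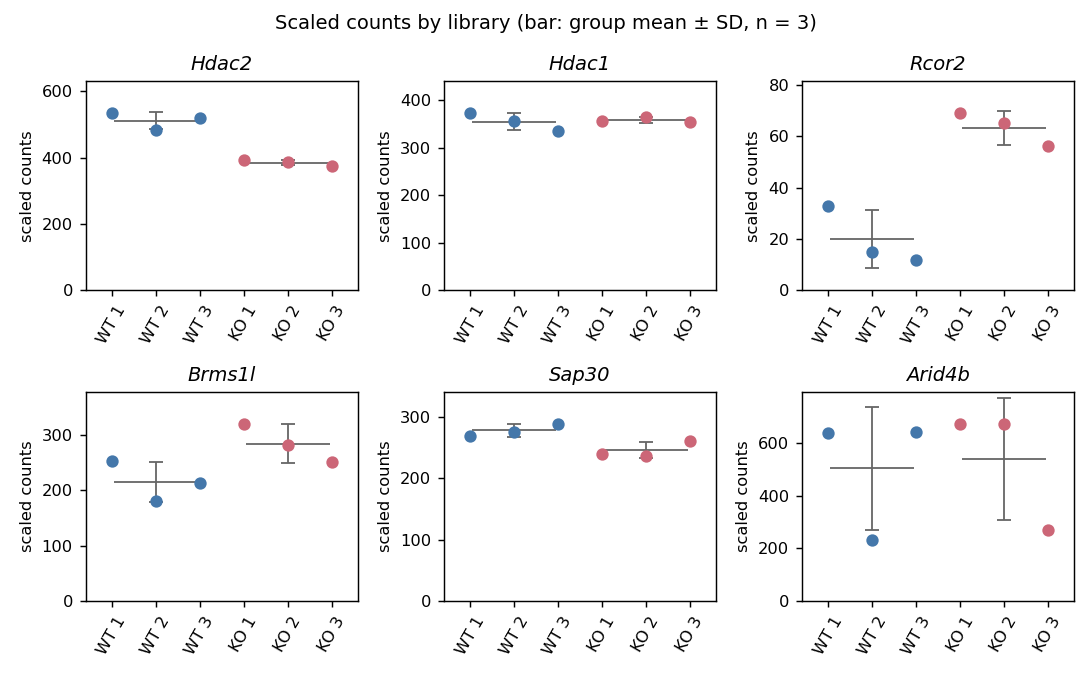
Scaled counts of 6 members in each library, with the vertical axis starting at 0 and bars giving the group mean ± SD (n = 3). Hdac2 is lower and Rcor2 higher in every KO library, Hdac1 is level, and Arid4b is low in WT 2 and KO 3 alike.

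Rbbp4 and Rbbp7, the histone chaperones, were among the steadiest members. Rbbp4 had 960, 1010 and 986 scaled counts in WT and 961, 970 and 965 in KO, and Rbbp7 had 747, 725 and 733 in WT and 726, 735 and 697 in KO. Both log2 differences were -0.03, with 95% intervals of -0.13 to 0.07 and -0.14 to 0.07. Rbbp7 lies on the X chromosome, as does Xist. Between WT 1 and the libraries WT 2 and WT 3, Xist differed widely and Rbbp7 little. The part of sex in the values of the members was not tested.

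In the SIN3 complex 12 of 13 subunits were tested, with 7 means above and 5 below WT and a median difference of 0.005. The scaffolds SIN3A and SIN3B, which carry all other subunits, were level. Sin3a had 883, 864 and 845 scaled counts in WT and 875, 857 and 882 in KO (log2 difference 0.01, 95% interval -0.09 to 0.11). Sin3b averaged 699 ± 69 scaled counts in WT against 682 ± 5.57 in KO (SD, n = 3), with WT 2 as the high library at 779.

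Sap30, a small subunit that helps fix the deacetylase to SIN3, was the SIN3 gene whose groups did not overlap. It had 269, 275 and 289 scaled counts in WT and 240, 237 and 261 in KO, a log2 difference of -0.17 ± 0.0688 (SE; limma adjusted p = 0.193). Its paralog Sap30l was at 185 ± 14.1 and 170 ± 9.45, and the groups overlapped. Suds3, another subunit that binds the deacetylase, was at 695 ± 57.7 and 632 ± 49.5, while Sap18 (324 ± 6.03 and 326 ± 4.51) and Sap130 (838 ± 35.4 and 840 ± 45.5) had near-equal means (SD, n = 3).

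The BRMS1 family showed the most uneven pair. Brms1l (ENSMUSG00000012076, chromosome 12, 55836324 to 55869736) had 252, 180 and 213 scaled counts in WT and 320, 281 and 251 in KO. The lowest KO library met the highest WT library, WT 1. The log2 difference was 0.41 ± 0.149 (SE; 95% interval 0.04 to 0.77; limma adjusted p = 0.176), 0.16 against WT 1 alone, and 0.53 without WT 1 (adjusted p = 0.0468), where 12.8% of all genes passed as higher. The sum of the stroma markers was ordered in the same way between WT 1 and the other WT libraries. The part of stromal cells in this difference was not tested. Brms1 (chromosome 19, 5041354 to 5049917) was at 1, 1 and 4 scaled counts in WT and 2, 0 and 2 in KO. In the GENCODE M21 annotation, 1383 of its 1750 exonic bases also belong to AC124502.3 on the same strand, and no label states how reads matching both genes were counted, so these values need not show a low level of Brms1 RNA. Exonic bases were shared with another gene in 12 members, Brms1 included, on the opposite strand in 9. The largest share with 1 gene, apart from Brms1, was 10.7%, and since the labels do not state whether strand was used in counting, these 12 are less certain.

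Arid4b (ENSMUSG00000039219, chromosome 13, 14063232 to 14199603), which encodes a chromatin-binding subunit, varied more than any other tested member, and not by genotype. It had 635, 233 and 641 scaled counts in WT 1, WT 2 and WT 3, and 672, 669 and 271 in KO 1, KO 2 and KO 3. One library of each group was low and the other 4 were within a range of 635 to 672. The log2 difference was 0.12 with a 95% interval of -1.16 to 1.40, -0.36 against WT 1 alone and 0.36 without WT 1. Its paralog Arid4a was also lowest in the same libraries, at 699 in WT 2 and 648 in KO 3 against 758 to 881 in the others.

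The low values of WT 2 and KO 3 were not particular to Arid4b. In 128 of the genes tested (0.965%) both libraries were below 0.5 of every other library, and Arid4b was the 1 member among them. In 1709 genes (12.9%) both lay below all others, 4 members included (Arid4a, Arid4b, Rbbp7 and Rcor1), and in 1443 (10.9%) both lay above, 8 members included (Gatad2a, Gatad2b, Hmg20b, Kdm1a, Mbd2, Mta1, Sap130 and Suds3). The G and C content of the longest annotated transcript differed between these sets, with a median of 39.2% for the 128 genes, 41.5% for the 1709, 54.1% for the 1443 and 49.4% for all genes tested. For Arid4b it was 40.7%, the lowest among the members, whose median was 52.2%. The sum of 12 proliferation markers was also lowest in these libraries, at 8696 in WT 2 and 10705 in KO 3 against 12647 to 13105 in the others. The markers did not move together. Mki67 was at 605 in WT 2 and 1329 in KO 3 against 3109 to 3432 in the others. Mcm2, Mcm3, Mcm5 and Mcm7 were lowest in WT 2, at 826, 911, 875 and 711. In KO 3 they were instead highest, at 1001, 1012, 980 and 746. Pcna was highest in WT 2, at 587. The part of base content and of proliferation in these values was not tested. With WT 2 and KO 3 set aside, the Arid4b log2 difference was 0.07, and 0 members and 0 genes passed.

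ING1 and ING2, which read a methyl mark of active promoters and bring SIN3 there, completed the complex. Ing1 had 308, 329 and 310 scaled counts in WT against 306, 334 and 339 in KO. Ing2 had 135, 153 and 135 in WT against 155, 131 and 144 in KO. The groups of both overlapped. Per kb of annotated exon, a scale on which genes can be compared, the 12 tested SIN3 subunits ran from Sap30 at 222 and Sin3a at 161 down to Ing2 at 47.1 and Arid4b at 30.7 scaled counts, as means over the 6 libraries. Exonic length here is the union of all annotated exons, which understates genes with long alternative ends.

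In the NuRD complex all 9 subunits were tested, and 7 means lay below WT with a median difference of -0.046, which turned to 0.038 under cyclic loess scaling and was 0.003 against WT 1 alone. Chd4, the remodelling ATPase, was the most abundant member, at 336 scaled counts per kb. It had 2677, 2950 and 2726 scaled counts in WT and 2585, 2647 and 2598 in KO. Every KO library was below every WT library by a small margin, a log2 difference of -0.09 ± 0.0539 (SE; limma adjusted p = 0.339) that became 0.038 under cyclic loess and was -0.04 against WT 1 alone. The alternative ATPase Chd3 had 1521, 1759 and 1488 in WT and 1733, 1651 and 1586 in KO, with overlap.

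The MTA proteins are the NuRD scaffolds that hold the deacetylase. Mta2 had 1025, 1092 and 991 scaled counts in WT and 985, 989 and 984 in KO, with a very small gap between the groups, and its log2 difference of -0.07 was 0.0008 under cyclic loess. Mta3 had 471, 569 and 536 in WT and 408, 437 and 503 in KO, a log2 difference of -0.23 ± 0.105 (SE; 95% interval -0.48 to 0.03; limma adjusted p = 0.246), the next largest lower value after Hdac2, and the groups overlapped. Against WT 1 alone it was -0.07. Mta1 was at 618 ± 45.6 and 633 ± 10.1 (SD, n = 3).

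The other NuRD genes encode methyl-CpG-binding domain proteins, of which MBD2 binds methylated DNA and MBD3 does so poorly, and the GATAD2 subunits that join them to the ATPase. Mbd2 averaged 636 ± 36.1 in WT against 596 ± 37.9 in KO, and Mbd3 averaged 531 ± 15.7 and 514 ± 11.4 (SD, n = 3). Gatad2a was at 1038 ± 66.5 and 1024 ± 53.5 and Gatad2b at 1042 ± 96.1 and 1019 ± 36.5. All 4 overlapped between groups, and their log2 differences ran from -0.09 to -0.02. Against WT 1 alone those of Gatad2a and Gatad2b were 0.05 and 0.10.

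In the CoREST complex the demethylase gene and the main scaffold were level, and a minor scaffold was not. Kdm1a, which encodes the demethylase LSD1, had 630, 671 and 625 scaled counts in WT and 636, 639 and 648 in KO (log2 95% interval -0.12 to 0.11). Rcor1, the scaffold CoREST1, had 822, 814 and 842 in WT and 817, 846 and 793 in KO. Rcor3 was at 352 ± 23.7 and 347 ± 10.3 in WT and KO (SD, n = 3). Hmg20b, a DNA-binding subunit, had 393, 485 and 405 in WT and 370, 391 and 410 in KO. Phf21a, the reader of unmodified histone H3, had 481, 523 and 503 in WT and 535, 539 and 523 in KO, so that the lowest KO library tied with the highest WT library.

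Rcor2 (ENSMUSG00000024968, chromosome 19, 7267325 to 7275225), a further CoREST scaffold, had 33, 15 and 12 scaled counts in WT 1, WT 2 and WT 3 and 69, 65 and 56 in KO 1, KO 2 and KO 3. Every KO library was above every WT library, and WT 1 lay between WT 2 and the KO libraries. The KO mean was 3.17 times the WT mean, a log2 difference of 1.74 ± 0.377 (SE; 95% interval 0.82 to 2.66), the largest of the members. It did not pass with all libraries (limma adjusted p = 0.158). Without WT 1 it was 2.15 (adjusted p = 0.00188), and against WT 1 alone 0.91. The level was low throughout, at 6.34 scaled counts per kb in WT and 20.1 in KO, against 145 and 144 for Rcor1.

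The sum of the 14 stroma markers moved between libraries in the same order of groups as Rcor2, from 7602 to 18943 in WT and from 19563 to 24535 in KO, with WT 1 as the highest WT library of both. Snai1 and Zeb1, transcription factors of mesenchymal cells that recruit these corepressors, had that pattern too. Both were named for their small p in the list of recruiters, so their KO difference is no separate support. Of the 20 recruiters tested, 15% were higher in every KO library, against 16.1% of all genes. Snai1 had 48, 15 and 12 scaled counts in WT and 89, 99 and 84 in KO, a log2 difference of 2.08 ± 0.50 (SE; limma adjusted p = 0.158) and of 0.90 against WT 1 alone. Zeb1 had 251, 125 and 200 in WT and 395, 325 and 300 in KO, a difference of 0.87 ± 0.261 (adjusted p = 0.158) and of 0.43 against WT 1 alone. The part of stromal cells in the Rcor2 values was not tested.

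**Figure D3:**
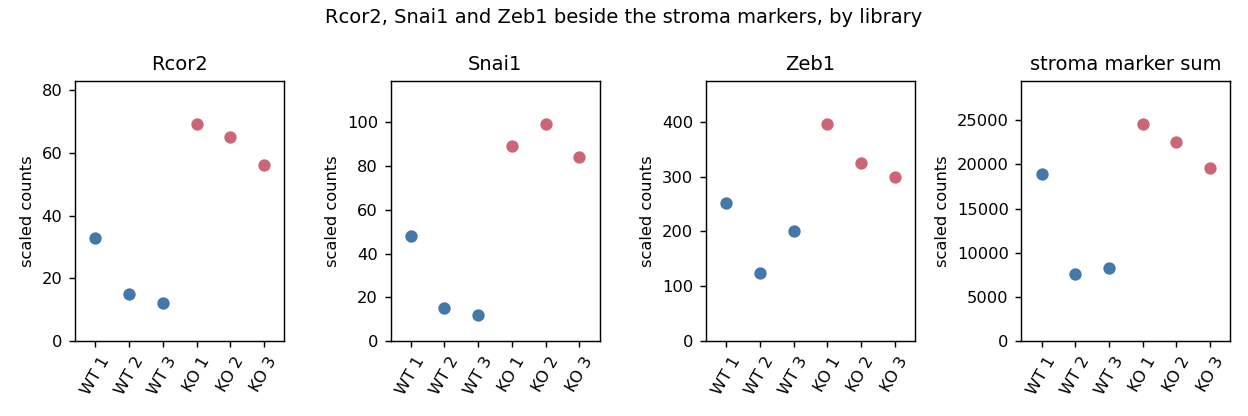
Scaled counts by library of Rcor2, of the recruiters Snai1 and Zeb1, and of the sum of 14 fibroblast and marrow stroma markers, with every vertical axis starting at 0. In each panel the KO libraries are highest and WT 1 is the highest WT library. Snai1 and Zeb1 were named for their small p in the list of recruiters.

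MiDAC was represented by Dnttip1, the subunit that dimerises and anchors the deacetylase. It had 284, 275 and 283 scaled counts in WT and 269, 270 and 261 in KO, without overlap but with a log2 difference of only -0.07 ± 0.0553 (SE; limma adjusted p = 0.454). Both groups had an SD of 4.93 scaled counts, around means of 281 and 267.

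**Figure D4:**
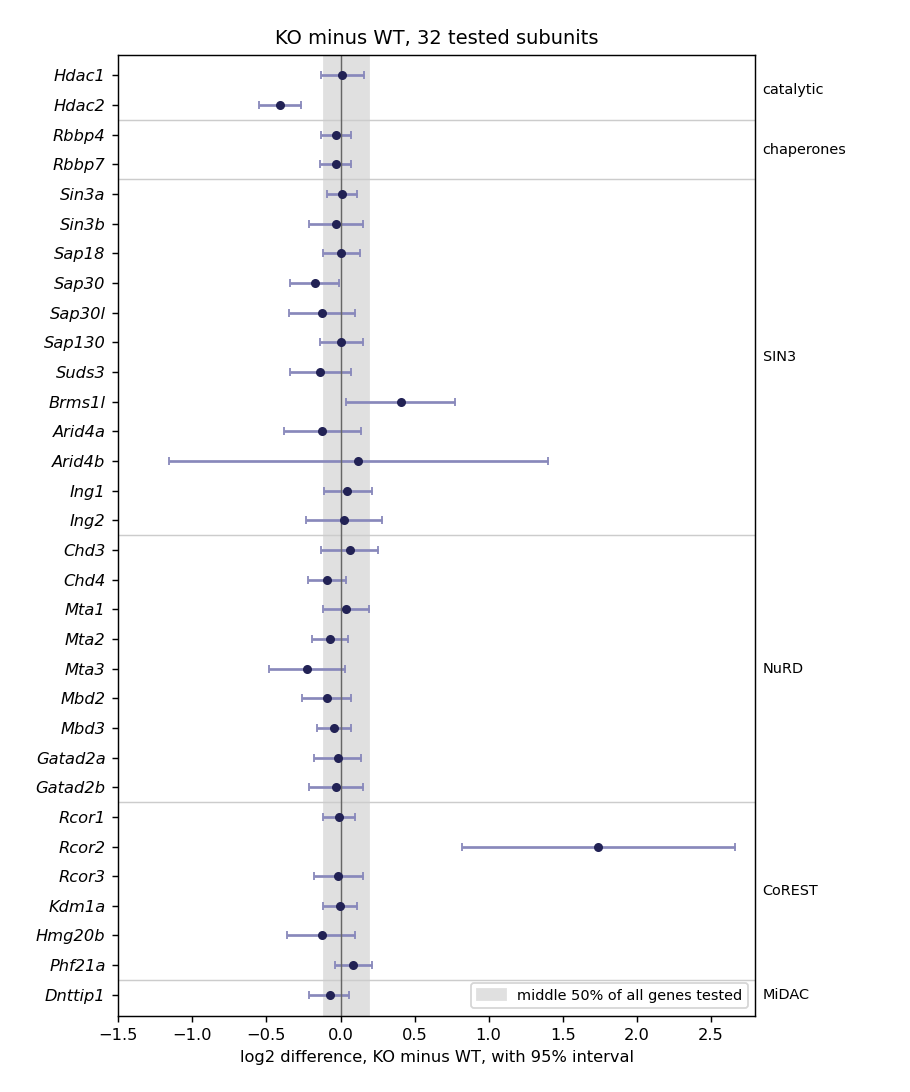
Log2 differences, KO minus WT, with 95% intervals for the 32 tested subunits grouped by complex, and a grey band from -0.11 to 0.19 holding the middle 50% of all genes tested. The intervals of Hdac2 (-0.55 to -0.27), Rcor2 (0.82 to 2.66), Brms1l (0.04 to 0.77) and Sap30 (-0.34 to -0.01) leave out 0.

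Shares within a paralog family do not depend on the scaling factor of a library, and were computed for 16 members of 12 families from scaled counts per kb. Hdac2 made up 52.4%, 51.0% and 54.3% of the catalytic pair in WT and 45.9%, 44.9% and 44.9% in KO, a shift of -7.31 percentage points. Rcor2 made up 5.81%, 2.75% and 2.11% of its family in WT and 11.4%, 10.5% and 9.75% in KO, and Rcor1 correspondingly 81.9 ± 1.32% and 76.0 ± 0.782% (SD, n = 3). Chd4 was 64.9 ± 1.01% of the ATPase pair in WT and 62.4 ± 1.15% in KO, and Mta1 was 36.1 ± 0.476% of the MTA family in WT and 38.5 ± 0.271% in KO. These shares, with that of Rcor3 (14.5 ± 0.857% and 13.5 ± 0.099%), were the 6 that did not overlap. Each had an exact permutation p of 0.1, the smallest possible, and 0.267 after Benjamini-Hochberg adjustment over 16 shares, so none could pass at this size. Shares of 1 family are not independent of each other. Those of Rcor1 and Rcor3 fell while their scaled counts were level (log2 differences -0.01 and -0.02) and Rcor2 rose. The shares of Rbbp7 (69.2% and 69.1%), Gatad2b (32.9% and 32.7%) and Ing2 (33.5% and 33.2%) had the closest WT and KO means.

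**Figure D5:**
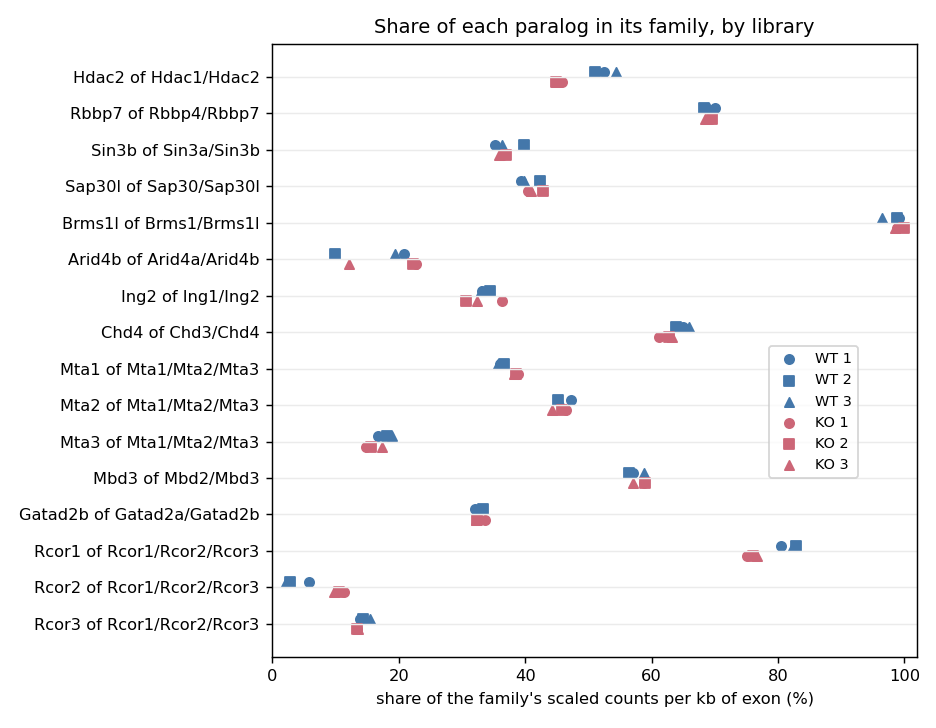
Share of a member in the scaled counts per kb of its paralog family, in percent, with WT libraries above and KO libraries below each line. Hdac2 and Rcor2 are displaced between groups in opposite directions (-7.31 and 7.01 points, or -7.22 and 3.47 when not scaled by length). Arid4b is displaced by library instead of by group.

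Further subunits and partners from a fixed list were tested in the same fit. Of 20 tested genes 0 passed, 3 had an unadjusted p under 0.05 (against 24.4% of all genes) and 2 did not overlap (10%, against 29.5%), with a median log2 difference of -0.029. Ogt, the sugar transferase that associates with SIN3 and lies on the X chromosome, had 1742, 2119 and 1781 scaled counts in WT and 1506, 1638 and 1628 in KO. Rere, a repressor that binds HDAC1 and HDAC2, had 1204, 1262 and 1135 in WT and 1293, 1335 and 1336 in KO. Mier3, of a small deacetylase complex family, was at 248 ± 42.6 and 327 ± 47.3, and Trerf1, a MiDAC subunit, at 916 ± 131 and 723 ± 125 (SD, n = 3), both with overlap.

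Among 20 tested DNA-binding factors that recruit these complexes, 4 did not overlap (20%, against 29.5% of all genes), with Snai1, Zeb1 and Foxk2 higher and Bcl6 lower, and the median was -0.002. Bcl6, a repressor of inflammatory genes in macrophages, had 964, 1047 and 1023 scaled counts in WT and 776, 759 and 948 in KO (limma adjusted p = 0.159). Foxk2, a forkhead factor that binds SIN3A, was at 762 ± 38.8 and 824 ± 33.8 (SD, n = 3). Sp1, outside the rule for naming genes and given because the series title names its protein, had 1340, 1442 and 1393 scaled counts in WT and 1282, 1322 and 1345 in KO, with overlap.

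The complex built around HDAC3 served as a comparison. Hdac3, its catalytic subunit, had 464, 488 and 475 scaled counts in WT and 486, 492 and 476 in KO, a log2 difference of 0.03 (95% interval -0.09 to 0.14). Tbl1xr1, a WD40-repeat subunit, had 855, 743 and 821 in WT and 830, 889 and 772 in KO, a difference of 0.04 (95% interval -0.15 to 0.23) that was -0.04 against WT 1 alone. Both overlapped between groups, as did Gps2, a small subunit, at 380 ± 15.5 scaled counts in WT against 375 ± 18 in KO (SD, n = 3). Of the 8 other deacetylases tested, Hdac7 and Hdac6 were higher in every KO library (25%, against 16.1% of all genes). Hdac7, a class II enzyme, had 286, 231 and 245 in WT and 434, 374 and 378 in KO, a log2 difference of 0.64 ± 0.105 (SE; limma adjusted p = 0.158), 0.46 against WT 1 alone and 0.73 without WT 1 (adjusted p = 0.00485). Hdac6, a mainly cytoplasmic enzyme on the X chromosome, had 330, 348 and 347 in WT and 374, 373 and 370 in KO (adjusted p = 0.204). Hdac9, another class II enzyme, had 563, 518 and 639 in WT and 469, 480 and 528 in KO, and Hdac11, the class IV enzyme, had 41, 53 and 59 in WT and 76, 64 and 59 in KO. For Hdac9 the highest KO library lay above the lowest WT library, and for Hdac11 the lowest KO library tied with the highest WT library.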

How the data were processed

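Libraries of 3 WT and 3 KO samples were made with a stranded mRNA kit and sequenced as single reads, per the labels' protocols. Tools named without roles in the submitters' processing notes are STAR 2.7.10a, Trimmomatic 0.39, featureCounts 2.0.3, DESeq2 1.36.0 and Picard 2.27.4, and the build is mm10. The deposited unit was taken as a score, that is, values the authors normalized and rounded: library totals were near equal, and WT 2 never held 6, 17, 29, 40 or 52. As these are not reads, no count model was used and no counting interval is given.

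A gene entered the fit when 3 or more libraries had 10 or more scaled counts. The fit, limma (version 3.58.1, R 4.3.3) with its trend option, used log2(scaled count + 1) and the group alone, with two-sided p-values adjusted by Benjamini-Hochberg over all genes. This scale understates the change of low genes. Single values were tested by exact permutation over libraries (scipy 1.17.1). Exonic lengths, overlaps and base content come from GENCODE M21, whose starts and ends matched the table for 99.1% of the genes found there. The fit was tested on simulated data. Members and lists were chosen with earlier results of these data known. All members are named, with up to 4 genes of smallest p from each other list. Of the genes this rule takes, 1 is not reported here. Alternatives were other scalings, filters, pseudocounts and variance models, a replicate block and left-out libraries.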

Additional observations from a re-analysis of the deposited data

How the results depend on the processing

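Of 19 alternatives, 1 made members pass. Leaving out single libraries gave 0 to 2363 genes and 0 to 3 members past the threshold, 6 to 14 members without overlap, and Hdac2 differences of -0.45 to -0.38, which passed only without WT 1; the cause was not tested. The higher ends came without WT 1 (2363 genes, 3 members; 11 without overlap against 49.7% of genes), without WT 2 (12, against 37.8%) and without KO 3 (14, against 50.6%). With WT 1 as the only WT library 18 members did not overlap (53% of genes), and with WT 2 and KO 3 set aside, chosen after the data were seen, 19 did not (59.5%). Under cyclic loess Chd4 was 0.038 and Mta2 0.0008. In all, 18 of 32 members changed sign in at least 1 alternative, each with a difference of 0.12 or less in size when all libraries were used. Not scaled by length, the Rcor2 share shifted by 3.47 points, that of Rcor1 by -2.38 and that of Hdac2 by -7.22. The replicate numbers did not pair the libraries (correlations of deviations 0.534, -0.364 and 0.0238; 2 of 6 libraries correlated best with their own number). With the replicate block 0 genes and 0 members passed, 2744 genes had an unadjusted p under 0.05, and Hdac2 stood at -0.41.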
